A study of Mus musculus with 6 samples.

Results

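The 37 genes of the apoptosis and necroptosis machinery were compared between the T1 and T2 tumor cell populations. They were taken by symbol from a fixed list, and all 37 were among the 24127 gene names of the RNA sequencing table. The list was drawn up with earlier results of these data known. It covers the Bcl2 family, the caspases with their activators and inhibitors, the death receptor Fas with its signalling complex, and the necroptosis and pyroptosis effectors.

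T1 (4T1A) and T2 (4T1NA) cells both descend from 4T1, a mouse mammary carcinoma line of BALB/c origin, that carried green fluorescent protein (GFP) as a tumor cell tag and had been injected into BALB/c mice. Both were GFP+ cells that had grown out in a culture of fibroblasts sorted from a resected primary tumor and were sorted again on GFP. T1 cells were low in GFP, adherent and epithelial in shape. T2 cells had high GFP, were round and loosely adherent, and were passaged without trypsin. Both were kept in the same DMEM/F-12 medium with serum and the labels name no treatment, so the values are transcript levels of untreated cultures. All cells came from 1 tumor model and the populations were set apart by their GFP level. Each population had 3 replicates. The sources do not say whether these came from separate cultures, and the study's methods state only in general that experiments had biological replicates. The p-values measure the spread between these samples. The parental 4T1GFP cells were not analysed here.

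Apoptosis runs along an intrinsic route, in which Bcl2 family proteins decide whether mitochondria release cytochrome c to activate caspase-9, and an extrinsic route, in which death receptors such as Fas recruit Fadd and caspase-8. When caspase-8 is inactive, Ripk1 and Ripk3 can instead phosphorylate Mlkl, which ruptures the plasma membrane in necroptosis. Pyroptosis is a further lytic form, in which inflammatory caspases cleave gasdermin D. Most of these proteins are regulated after translation, and a transcript level gives no measure of cell death.

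The libraries held 18133227 to 20839686 reads on genes, and 1 read was worth 0.928 to 1.06 normalized counts. Between replicates of 1 population the chi-square per degree of freedom of the reads was 7.956 to 25, well beyond counting error. Genes averaging 10 or more normalized counts over the 6 libraries were tested with limma on log2(normalized count + 1), with p-values adjusted by Benjamini-Hochberg over all 11514 genes tested. Every fold change below is T1 over T2 on that scale, on which the change of a gene with few reads depends on the pseudocount. In bulk RNA, fewer cells carrying a transcript and less of it per cell cannot be told apart.

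T1 and T2 cells differed in 22 of the 37 genes of the machinery. The death receptor Fas had 82 to 112 reads in T1 libraries and 1 or 2 in T2 libraries, whereas the inflammatory caspases Casp1 and Casp12 had 0 to 29 reads in T1 libraries and 107 to 339 in T2 libraries. Of the 37 members 32 were tested. At an adjusted p under 0.01 (limma), 8 were higher and 14 lower in T1 cells, and 10 were not called. Over all genes tested the called share was 49.5%, with 25.1% higher and 24.4% lower in T1 cells. Among the 32 members it was 68.75%. With the further filter of an absolute log2 fold change above 2, Bmf and Fas were higher and Bcl2l11, Casp1 and Casp12 lower in T1 cells, which is 5 of 32 against 8.37% of all genes tested. The T1 and T2 values did not overlap for 25 of the 32 members, against 68.1% of all genes tested. The median log2 fold change of the members tested was -0.13, and that of all genes tested was -0.01. Members enter the test only if they have reads in at least one population, so these counts describe the 32 genes and carry no test of the list.

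The 5 members left out of the test had few or no reads. Ripk3, the kinase that activates Mlkl, and Hrk, a BH3-only protein known mainly from neurons, had 0 reads in all 6 libraries, which allows up to 3 reads per library. Bik, Casp4 and Pycard had between 0 and 16 reads per library and are described with their groups.

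**Figure D1:**
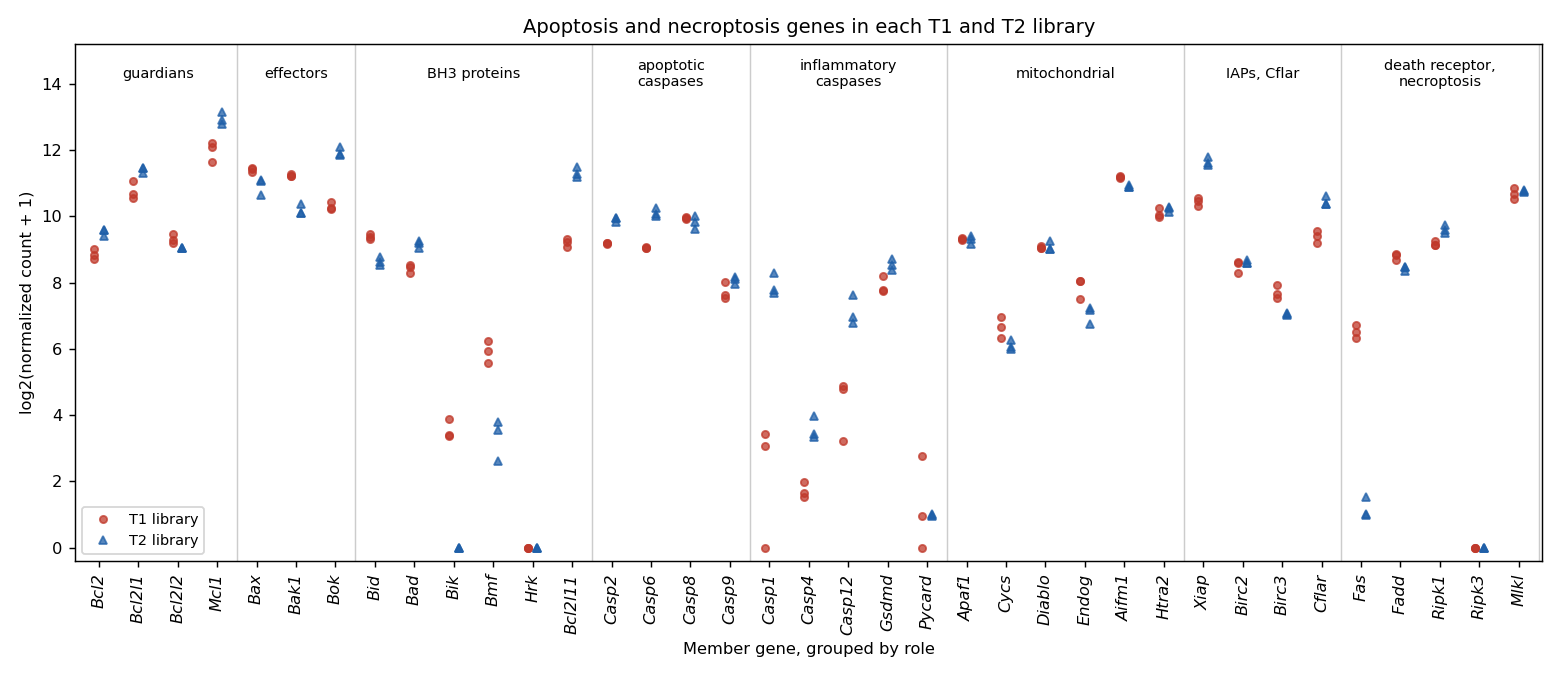
Level of each of the 37 members in the 3 T1 libraries (circles) and the 3 T2 libraries (triangles), as log2(normalized count + 1), grouped by role. Fas, Bmf and Bik sit far higher in T1 cells, and Casp1, Casp12 and Bcl2l11 in T2 cells. Bik was not tested, with 9 to 14 reads per T1 library and 0 in T2 libraries. Hrk and Ripk3 lie at 0 in every library.

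**Figure D2:**
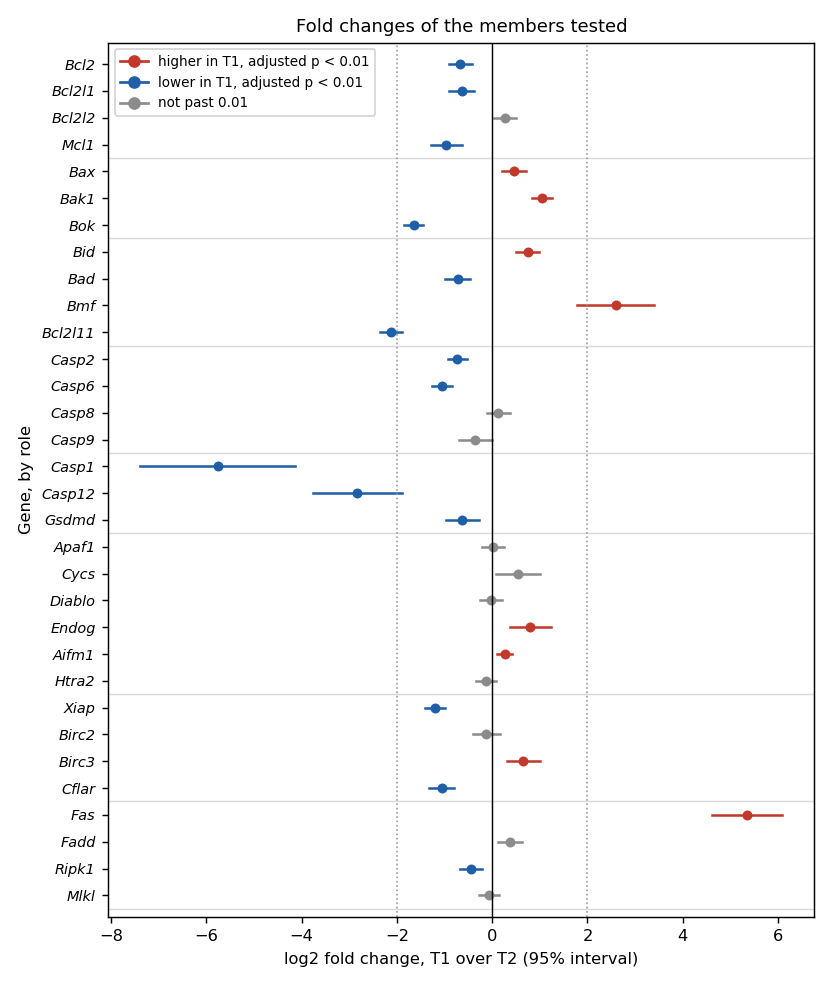
Fold change of the 32 members tested, as log2 of T1 over T2 with its 95% interval from limma, grouped by role. Colored points passed an adjusted p under 0.01, gray points did not, and the dotted lines mark a log2 fold change of 2 in either direction. The changes run from -5.75 for Casp1 to 5.35 for Fas.

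The upstream sequences of 7 members are shown as examples. They are the 3 neighbouring inflammatory caspases, the most changed member lower in T1 cells outside that cluster (Bcl2l11), the most changed member higher in T1 cells (Fas), and the absent and present partners of the necroptosis pair. For each, the 200 bases that end 50 bases before the RefSeq start are printed on the gene's own strand, from the RefSeq promoter table of build GRCm38.p6, and capitals mark CpG dinucleotides. Casp4 and Bcl2l11 have 2 promoters each in that table, and the first is shown.
Casp1 (chr9:5298267-5298466, plus strand): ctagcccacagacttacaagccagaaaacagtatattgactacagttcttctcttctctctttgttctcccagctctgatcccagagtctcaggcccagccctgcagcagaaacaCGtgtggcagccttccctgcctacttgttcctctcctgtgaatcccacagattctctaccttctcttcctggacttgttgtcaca
Casp4 (chr9:5308599-5308798, plus strand): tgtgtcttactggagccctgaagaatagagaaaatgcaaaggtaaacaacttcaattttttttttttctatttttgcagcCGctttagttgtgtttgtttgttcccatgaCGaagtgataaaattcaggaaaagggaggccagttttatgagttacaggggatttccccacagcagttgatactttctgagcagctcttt
Casp12 (chr9:5345226-5345425, plus strand): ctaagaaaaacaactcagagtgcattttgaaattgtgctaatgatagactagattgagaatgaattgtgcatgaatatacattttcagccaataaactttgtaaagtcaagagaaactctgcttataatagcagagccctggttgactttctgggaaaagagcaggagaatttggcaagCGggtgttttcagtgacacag
Bcl2l11 (chr2:128125788-128125987, plus strand): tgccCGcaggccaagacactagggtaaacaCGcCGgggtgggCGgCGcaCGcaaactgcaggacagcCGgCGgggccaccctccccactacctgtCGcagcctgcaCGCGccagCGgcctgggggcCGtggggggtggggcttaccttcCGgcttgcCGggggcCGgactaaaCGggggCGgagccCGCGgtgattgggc
Fas (chr19:34290409-34290608, plus strand): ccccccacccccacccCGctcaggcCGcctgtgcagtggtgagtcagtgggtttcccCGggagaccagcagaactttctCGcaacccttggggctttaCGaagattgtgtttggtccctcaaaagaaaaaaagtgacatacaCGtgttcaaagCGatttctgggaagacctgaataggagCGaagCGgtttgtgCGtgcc
Ripk3 (chr14:55788908-55789107, minus strand): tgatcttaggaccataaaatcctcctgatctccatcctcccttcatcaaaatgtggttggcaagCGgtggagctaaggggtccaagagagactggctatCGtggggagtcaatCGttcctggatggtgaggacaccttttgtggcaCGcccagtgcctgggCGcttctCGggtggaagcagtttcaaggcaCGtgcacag
Mlkl (chr8:111338256-111338455, minus strand): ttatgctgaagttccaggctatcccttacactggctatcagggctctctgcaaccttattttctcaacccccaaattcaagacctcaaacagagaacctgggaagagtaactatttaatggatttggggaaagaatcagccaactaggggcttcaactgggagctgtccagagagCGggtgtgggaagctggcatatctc

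CpG content differed widely among these windows. Casp1, Casp12 and Mlkl each held 1 CpG and Casp4 held 2, while Fas held 10 and Bcl2l11 held 20. Ripk3, without a read, held 7. The median over all 32851 promoters in the table was 4, with quartiles of 2 and 11, and the median over the member promoters was 10. In total, 34 members matched the table with 45 promoters, and Htra2, Gsdmd and Bik did not. The interferon-type motifs TTCNNNGAA (GAS) and GAAANNGAA (ISRE core) were searched on both strands of the same windows. The first lay in 3 of the 45 member promoters (6.67%), those of Casp12, Fas and 1 of Ripk1, against 5.76% of all promoters. The second lay in 1 (2.22%), a promoter of Xiap, against 5.79%. A match is only an occurrence of these letters.

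Of the 4 anti-apoptotic guardians, which bind and hold back the other Bcl2 family proteins, 3 were lower and 0 higher in T1 cells. The shares over all genes tested were 24.4% and 25.1%. Mcl1, a short-lived guardian, had the largest change, with 4089.8 ± 833 normalized counts in T1 and 7928 ± 1069 in T2 cells (SD, n = 3) (log2 fold change of -0.97, SE 0.15, limma adjusted p = 0.000227). Bcl2 (log2 fold change -0.67, adjusted p = 0.000451) and Bcl2l1, which encodes Bcl-xL (log2 fold change -0.64, adjusted p = 0.000947), were lower by similar amounts in limma. Bcl2l2, which encodes Bcl-w, had a log2 fold change of 0.28 (95% interval 0.04 to 0.51, limma adjusted p = 0.0397) and did not pass. Per kb of exon, merged over all annotated transcripts of a gene, the order of the guardians was the same in both populations. Mcl1 was the highest, at 1197 in T1 and 2319.5 in T2 cells in normalized counts per kb. Bcl2l1 followed at 384 in T1 and 591 in T2, Bcl2l2 at 144 in T1 and 118 in T2 and Bcl2 at 50.8 in T1 and 80.5 in T2. No library of one guardian overlapped the next within a population. Bcl2l2 shares 13.3% of its exon length with Gm20521 on its own strand. The ratio of Bcl2l1 to Mcl1 per kb was 0.3218 in T1 and 0.2561 in T2 cells, a log2 difference of 0.33 with an exact two-sided permutation p of 0.5 (n = 3 per population, adjusted over 3 ratios 0.5). That difference rested on T1 replicate 3, the T1 library lowest in Mcl1 and highest in Bcl2l1, and was 0.01 on the log2 scale without it.

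The pore-forming effectors moved in opposite directions. Bak1 (chr17:27019810-27029009, minus strand, build mm10), which permeabilizes the mitochondrial outer membrane, had 2358, 2369 and 2469 normalized counts in T1 replicates 1 to 3 and 1101, 1331 and 1088 in T2 replicates 1 to 3. All 3 T1 libraries lay above the T2 libraries, with a log2 fold change of 1.04, SE 0.09, limma adjusted p = 6.18e-06. Bok (chr1:93685660-93695764, plus strand), a less understood relative of Bax and Bak, had 1373, 1216 and 1184 normalized counts in T1 replicates 1 to 3 and 4357, 3717 and 3778 in T2 replicates 1 to 3. Here every T2 library was higher, by 3.14-fold in the means (log2 fold change of -1.65, SE 0.09, limma adjusted p = 2.11e-07). Bax, the other classical effector, was modestly higher in T1 cells (log2 fold change of 0.46, SE 0.12, limma adjusted p = 0.00555). Its adjusted p rose to 0.0211, 0.0111 and 0.0127 in limma without T1 replicate 1, 2 or 3, and to 0.0256 without the variance trend. The Bax call thus ended in each of these fits. The spread of Bax was larger in T2 cells (SD 326 normalized counts) than in T1 cells (SD 113, n = 3 each). On the per kb scale the order of the effectors changed. In T1 cells Bax was the highest (1718 normalized counts per kb), then Bak1 (997) and Bok (683), whereas in T2 cells Bok led (2147), followed by Bax (1259) and Bak1 (487). The libraries of neighbouring genes did not overlap in either order. Both orders depend on the merged exon lengths, whichever transcripts were expressed. Bax shares 12.2% of its exon length with Gm45808 on its own strand. The ratio of Bax to Bcl2l1 was 3.78 to 4.978 in T1 libraries and 1.673 to 2.53 in T2 libraries. The populations did not overlap, with a log2 difference of 1.10 and an exact two-sided permutation p of 0.1, the smallest that 3 against 3 samples allow (adjusted over 3 ratios 0.3).

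The BH3 proteins, which sense stress and activate the effectors or disable the guardians, were split. Of the 4 tested, 2 were higher and 2 lower in T1 cells, against 25.1% and 24.4% of all genes tested. Bcl2l11 (chr2:128126038-128162547, plus strand), which encodes Bim, a broad activator, had 591, 539 and 637 normalized counts in T1 replicates 1 to 3 and 2480.3, 2331 and 2876 in T2 replicates 1 to 3. The lowest T2 library was far above the highest T1 library, with a log2 fold change of -2.12, SE 0.10, limma adjusted p = 8.75e-08. Bmf (chr2:118528757-118549687, minus strand), linked to the cytoskeleton and to cell detachment, had 60.3, 46.5 and 75.2 normalized counts in T1 replicates 1 to 3 and 10.8, 5.12 and 13.0 in T2 replicates 1 to 3. It was therefore higher in every T1 library, 6.30-fold in the means (log2 fold change of 2.59, SE 0.36, limma adjusted p = 0.000136), although T2 libraries held only 5 to 14 reads. Bik (chr15:83526862-83544634, plus strand), a BH3-only protein of the endoplasmic reticulum, had 9, 10 and 14 reads in T1 replicates 1 to 3 and 0, 0 and 0 in T2 replicates 1 to 3. Against a floor of 3 reads per T2 library, the T1 level of Bik was at least 3.69-fold higher. Without the filter on low values, limma gave an adjusted p of 2.29e-05 for Bik. Bid, which caspase-8 cleaves to link the extrinsic to the intrinsic route, was higher in T1 cells (log2 fold change of 0.75, SE 0.11, limma adjusted p = 0.000171). Bad, which growth factor signalling keeps phosphorylated, was lower (log2 fold change of -0.72, SE 0.12, limma adjusted p = 0.000323). Exons of Bid, Bad and Bak1 overlap those of neighbours on the other strand. The shared part of exon length is 17.7% for Bid with Bcl2l13 and 20.5% for Bad with Gpr137. For Bak1 it is 18.2% and 7.35% with separate annotated entries named Ggnbp1, which may share bases. The library kit does not mark strand, so reads there cannot be assigned to one gene.

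**Figure D3:**
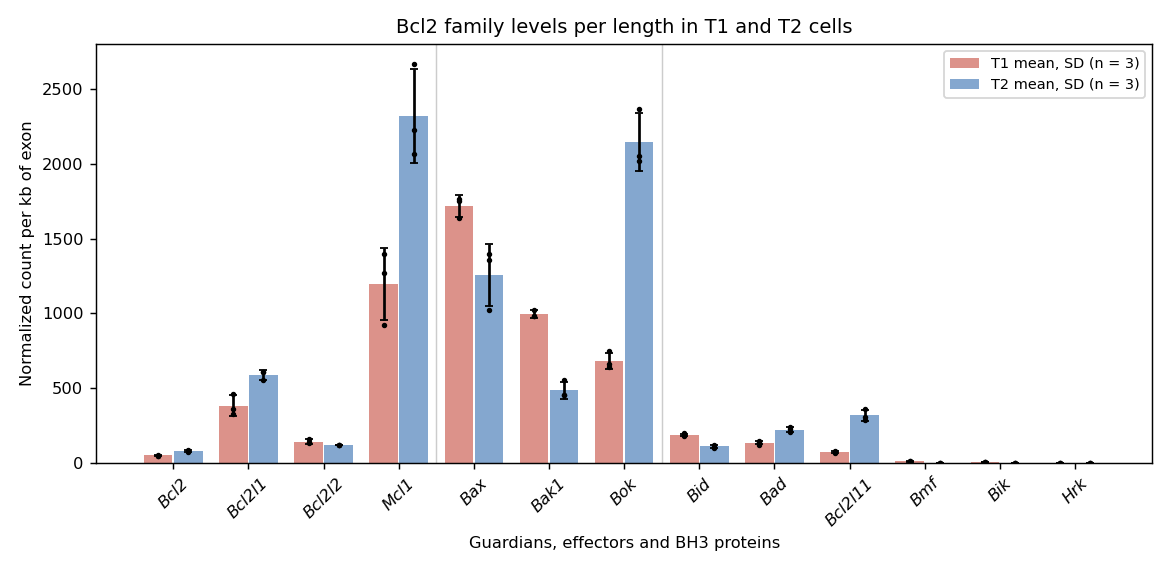
Level of each Bcl2 family member per kb of exon, as the mean of 3 libraries with its SD (bars and error bars) and each library (black points), for T1 and T2 cells. Mcl1 led the guardians in both populations, Bax led the effectors in T1 cells (1718) and Bok in T2 cells (2147), and Bcl2l11 reached 319 in T2 against 73.4 in T1 cells.

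Among the apoptotic caspases, 2 of 4 were lower in T1 cells and 0 were higher, against 24.4% and 25.1% of all genes tested. Casp6 (chr3:129901425-129914103, plus strand), an executioner that cleaves lamins, had 526, 540.3 and 524 normalized counts in T1 replicates 1 to 3 and 1209, 1072 and 1035 in T2 replicates 1 to 3. The populations were well separated (log2 fold change of -1.06, SE 0.10, limma adjusted p = 6.26e-06). Casp2, an initiator activated on the PIDDosome, was also lower (log2 fold change of -0.73, SE 0.09, limma adjusted p = 5.00e-05). The initiators of the main routes were not called. Casp8, the initiator of the extrinsic route, had a log2 fold change of 0.13 (95% interval -0.12 to 0.38, limma adjusted p = 0.334), and Casp9, the initiator of the intrinsic route, had -0.35 (95% interval -0.70 to 0.00, limma adjusted p = 0.077). In both genes the T1 and T2 values overlapped.

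The inflammatory caspases showed the largest difference in favour of T2 cells, and all 3 pyroptosis members tested were lower in T1 cells. Over all genes tested, 24.4% were lower. Casp1 (chr9:5298517-5307265, plus strand), the protease of the inflammasome that matures interleukin-1 and interleukin-18, had 7.41, 0 and 9.76 normalized counts in T1 replicates 1 to 3 and 219, 204 and 315 in T2 replicates 1 to 3. T1 replicate 2 held no Casp1 read and the other T1 libraries held 7 and 10 reads, whereas T2 libraries held 199 to 339. The means were 5.72 ± 5.09 normalized counts in T1 and 246 ± 59.99 in T2 cells (SD, n = 3), with a log2 fold change of -5.75, SE 0.73, limma adjusted p = 6.74e-05. The size of the change depended on single libraries, since it was -4.67 without T1 replicate 2 and -6.39 without T1 replicate 3. A pseudocount of 5 also gave -4.67.

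Casp12 (chr9:5345430-5373032, plus strand), a caspase linked to the endoplasmic reticulum, had 26.5, 8.37 and 28.3 normalized counts in T1 replicates 1 to 3 and 122, 109.5 and 197 in T2 replicates 1 to 3. All T2 libraries lay above the T1 libraries, 6.79-fold in the means (log2 fold change of -2.83, SE 0.42, limma adjusted p = 0.000203). Casp4 (chr9:5308828-5336783, plus strand), known in mice as caspase-11 and a sensor of intracellular lipopolysaccharide, had 2, 2 and 3 reads in T1 replicates 1 to 3 and 10, 9 and 16 in T2 replicates 1 to 3. The ratio of T2 to T1 reads, scaled for depth, was 4.95 with a 95% counting interval of 2.17 to 13.2. In limma without the filter on low values, Casp4 had a log2 fold change of -1.88 and an adjusted p of 0.00202. The 3 genes lie side by side on the plus strand of chromosome 9, within 74.5 kb that hold no other annotated gene. The nearest protein-coding genes, Gria4 at 502 kb before and Pdgfd at 796 kb after the cluster, had 0 reads in every library. For all 3 caspases T2 replicate 3 was the highest and T1 replicate 2 the lowest of the 6 libraries.

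Gsdmd, which encodes the pore protein that inflammatory caspases cleave, was lower in T1 cells by a smaller amount (log2 fold change of -0.63, SE 0.16, limma adjusted p = 0.00534). The limma adjusted p of Gsdmd rose to 0.0233 without T1 replicate 1, 0.0238 without T1 replicate 2, 0.0199 without T2 replicate 1 and 0.0276 without T2 replicate 3. Pycard, the adaptor ASC that links inflammasome sensors to caspase-1, had 0, 1 and 6 reads in T1 replicates 1 to 3 and 1, 1 and 1 in T2 replicates 1 to 3. These values overlapped, with a ratio of T1 to T2 reads of 2.36 and a 95% counting interval of 0.538 to 14.1. Macrophages and other leukocytes are rich in Casp1, and the 8 leukocyte markers were therefore read beside it. They summed to 385 to 463 normalized counts in T1 and 167 to 203 in T2 libraries, mostly from Cd14 and Cd68. Cd14 was higher in T1 cells (mean 340 against 83.1), and the Cd68 values overlapped (mean 72.9 against 94.6). Coro1a was at 0 to 4.65 normalized counts in T1 and 1.02 to 12.1 in T2 libraries. Laptm5 and Lyz2 had at most 2 reads, in T1 replicate 2 alone. Tyrobp and Fcer1g were at 0 in all 6 libraries, and Ptprc, which encodes the pan-leukocyte antigen CD45, was at 0 in T1 libraries and at 2.78 to 6.14 normalized counts in T2 libraries. The part of such cells in the caspase values was not tested.

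**Figure D4:**
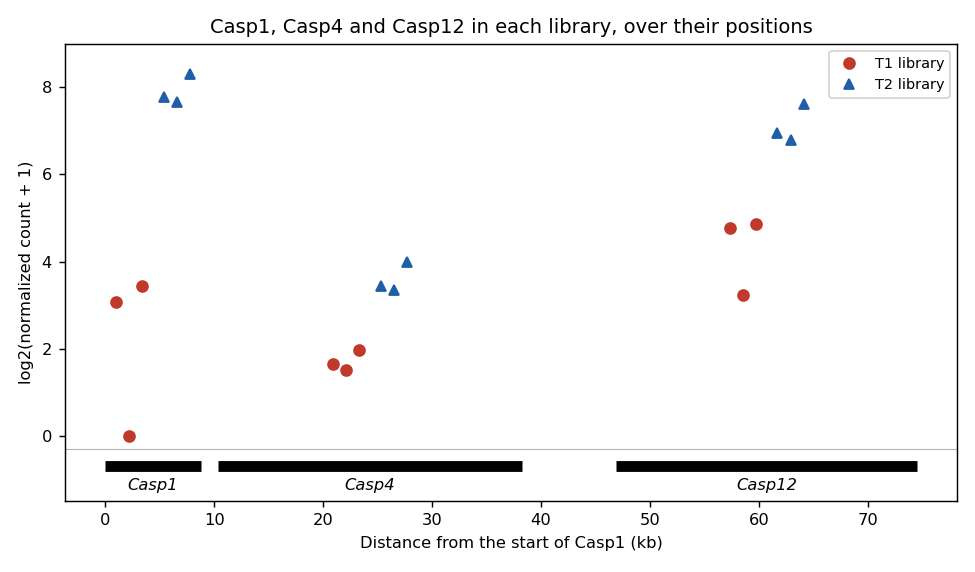
Level of Casp1, Casp4 and Casp12 in each library, as log2(normalized count + 1), drawn at the place of each gene in kb from the start of Casp1 (black bars, gene extents). Points of one gene are spread sideways for legibility. T2 libraries lie above T1 libraries for all 3 genes, with the widest gap at Casp1.

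Of the 6 mitochondrial death factors, 2 were higher and 0 lower in T1 cells, against 25.1% and 24.4% of all genes tested. Endog, a nuclease of the intermembrane space, had a log2 fold change of 0.80, SE 0.20, limma adjusted p = 0.00493. Its limma adjusted p rose to 0.0234, 0.0162 and 0.0228 without T1 replicate 1, T1 replicate 3 and T2 replicate 3, and 35.7% of its exon length overlaps Spout1 on the other strand. Aifm1, a flavoprotein of the inner membrane that can move to the nucleus, had the smallest called change (log2 fold change of 0.27, SE 0.07, limma adjusted p = 0.00799). Its call ended without T1 replicate 1 (0.0337), T1 replicate 2 (0.0294), T2 replicate 1 (0.017), T2 replicate 2 (0.0249) or T2 replicate 3 (0.0235), given as limma adjusted p. The apoptosome scaffold Apaf1 had a log2 fold change of 0.02 (95% interval -0.20 to 0.25, limma adjusted p = 0.865). Diablo and Htra2, which relieve caspases of their inhibitors, had -0.02 (95% interval -0.26 to 0.22, limma adjusted p = 0.861) and -0.13 (95% interval -0.35 to 0.08, limma adjusted p = 0.259), and their exons are shared with several neighbours. Diablo shares 21.5% of its exon length with B3gnt4 on the other strand and 19.35% with Gm49027 on its own, and Htra2 shares 25.6% with Aup1 and 18.2% with Loxl3, both on the other strand. Cycs, which encodes cytochrome c, had 0.54 (95% interval 0.08 to 1.01, limma adjusted p = 0.0434). Cycs has many processed pseudogenes that can take part of its reads, so its level is uncertain.

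Of the 4 inhibitors of apoptosis, counting Cflar, 2 were lower and 1 higher in T1 cells, against 24.4% and 25.1% of all genes tested. Xiap (chrX:42059679-42109656, plus strand), which binds and blocks caspases directly, had 1281, 1396 and 1501 normalized counts in T1 replicates 1 to 3 and 2971, 3114 and 3523 in T2 replicates 1 to 3. Every T2 library was above every T1 library (log2 fold change of -1.20, SE 0.09, limma adjusted p = 2.05e-06). Cflar (chr1:58711508-58758884, plus strand), which encodes c-FLIP, a catalytically dead relative of caspase-8 that competes for Fadd, had 584, 756 and 682 normalized counts in T1 replicates 1 to 3 and 1321, 1312 and 1564 in T2 replicates 1 to 3. It too was separated without overlap (log2 fold change of -1.06, SE 0.12, limma adjusted p = 2.63e-05). The ubiquitin ligases of the TNF receptor complex behaved otherwise. Birc3, also a target of NF-kB signalling, was higher in T1 cells (log2 fold change of 0.65, SE 0.15, limma adjusted p = 0.00401), and Birc2 had a log2 fold change of -0.12 (95% interval -0.40 to 0.16, limma adjusted p = 0.421). The Birc3 adjusted p in limma was 0.0238 without T1 replicate 2, 0.0161 without T2 replicate 1, 0.0104 without T2 replicate 2 and 0.0135 without T2 replicate 3.

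In the death receptor and necroptosis group, 1 of the 4 members tested was higher and 1 lower in T1 cells. These counts stand beside 25.1% and 24.4% of all genes tested. The receptor itself showed the largest difference in favour of T1 cells. Fas (chr19:34290666-34327772, plus strand), the receptor of Fas ligand, had 85, 112 and 82 reads in T1 replicates 1 to 3 and 1, 1 and 2 in T2 replicates 1 to 3. Scaled, this was 91.4 ± 12.1 normalized counts in T1 and 1.29 ± 0.494 in T2 cells (SD, n = 3). The ratio of T1 to T2 reads, scaled for depth, was 70.5, with a 95% counting interval of 27.2 to 260, and limma gave an adjusted p of 4.35e-07. The log2 fold change was 5.35 with the pseudocount of 1 and 3.93 with a pseudocount of 5, with 1 or 2 reads per T2 library. Fibroblasts also carry Fas, and both populations had been sorted as GFP+ cells out of a fibroblast culture. The 6 fibroblast markers summed to 20.1 to 40.0 normalized counts in T1 and 0 to 0.979 in T2 libraries, mostly from Col1a1 and Col1a2, while Col3a1, Lum and Pdgfrb were at 0 in every library. The part of such cells in the Fas values was not tested. Endothelial markers summed to at most 5.29 normalized counts. Of the 5 epithelial markers, Epcam, Cdh1 and Cldn4 were higher in T1 cells, and Krt8 and Krt18 were not called and were high in both populations (17357 to 25833 normalized counts).

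Below the receptor, the differences were small. Fadd, the adaptor between Fas and caspase-8, had a log2 fold change of 0.37 (95% interval 0.12 to 0.62, limma adjusted p = 0.0161) and did not pass, although its T1 values were all above its T2 values. Ripk1, the kinase that stands at the branch between survival, apoptosis and necroptosis, was lower in T1 cells (log2 fold change of -0.44, SE 0.10, limma adjusted p = 0.00399). That call ended without T1 replicate 1 (0.0172), T1 replicate 2 (0.0174), T2 replicate 1 (0.0149) or T2 replicate 3 (0.0188), given as limma adjusted p. Mlkl (chr8:111311797-111338177, minus strand), the executioner of necroptosis, was abundant in both populations, with 1482, 1636 and 1867 normalized counts in T1 replicates 1 to 3 and 1791, 1739.5 and 1698 in T2 replicates 1 to 3. The values overlapped, and the log2 fold change was -0.07 (95% interval -0.29 to 0.14, limma adjusted p = 0.513). Mlkl was thus read at 1401 to 1913 reads per library beside 0 reads of Ripk3 (chr14:55784995-55788865, minus strand) in the same libraries. The ratio of Mlkl to Casp8 per kb was 2.112 in T1 and 2.435 in T2 cells, a log2 difference of -0.21 (exact two-sided permutation p = 0.3, adjusted over 3 ratios 0.45, n = 3 per population).

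Genes of the wider pathway were read from a second list of 63 symbols, of which 62 were in the table and 35 were tested. At an adjusted p under 0.01 in limma, 12 were higher and 10 lower in T1 cells, a called share of 62.9%. The called share over all genes tested was 49.5%. Among the downstream targets, Dffa (log2 fold change 1.09, adjusted p = 0.000282), Dffb (log2 fold change 0.67, adjusted p = 0.00546) and Acin1 (log2 fold change 0.41, adjusted p = 0.00109), which act in DNA fragmentation and chromatin condensation, were higher in T1 cells in limma.

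In the rest of the Bcl2 family, the mitophagy receptors Bnip3 (log2 fold change -2.09, adjusted p = 1.32e-06) and Bnip3l (log2 fold change -0.62, adjusted p = 0.000579) were lower and Bcl2l13 (log2 fold change 0.60, adjusted p = 0.000156) higher in T1 cells in limma. Of the p53-responsive BH3-only genes, Bbc3, which encodes Puma, had a log2 fold change of 0.57 (95% interval -0.14 to 1.27, limma adjusted p = 0.146), and Pmaip1, which encodes Noxa, had 4 reads in 1 library and 0 in the others. Birc5, which encodes survivin, had -0.23 (95% interval -0.42 to -0.05, limma adjusted p = 0.0317). Naip2, an inflammasome sensor with near-identical relatives that can share its reads, was lower in limma (log2 fold change -1.34, adjusted p = 0.00316).

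Other death receptors also differed. Tnfrsf21 (log2 fold change 2.12, adjusted p = 2.42e-06), which encodes death receptor 6, and Tnfrsf10b (log2 fold change 1.03, adjusted p = 9.69e-06), the mouse TRAIL receptor, were higher in T1 cells in limma, and Tnfrsf1a (log2 fold change -0.99, adjusted p = 4.20e-05), the main TNF receptor, was lower. Tnfsf10, which encodes the ligand TRAIL, had 0, 1 and 1 reads in T1 replicates 1 to 3 and 69, 43 and 53 in T2 replicates 1 to 3. The ratio of T2 to T1 reads was 81.7 with a 95% counting interval of 22.3 to 680 (limma adjusted p = 3.54e-06). The TRAIL receptor was thus higher in T1 cells and its ligand in T2 cells. Fasl, the ligand of Fas, had 1 read in 1 T1 library and 0 in the others, and Tnf had at most 3 reads.

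Over all genes tested, 25.1% were higher and 24.4% lower in T1 cells, and 49.5% were called. In TNF receptor complex I, the platform of Ripk1, 6 of 12 genes were higher and 1 was lower in T1 cells (58.3% called). They included Tnfaip3 (log2 fold change 1.04, adjusted p = 2.67e-06) and Cyld (log2 fold change 0.76, adjusted p = 2.34e-05), which remove ubiquitin chains, and Rnf31 (log2 fold change 0.71, adjusted p = 0.000744), which adds linear ones, while Ikbkg (log2 fold change -0.46, adjusted p = 0.00181) was lower in limma. Of the 16 other necroptosis and pyroptosis genes in the table, 11 had too few reads to test. Of the 5 tested, 4 were lower in T1 cells and 0 were higher, against 24.4% and 25.1% of all genes tested. Il18, a cytokine that caspase-1 matures, had 4.23, 1.86 and 0 normalized counts in T1 replicates 1 to 3 and 64.6, 53.2 and 88.2 in T2 replicates 1 to 3. The populations were far apart (log2 fold change of -4.79, SE 0.56, limma adjusted p = 3.63e-05). Dfna5, the older symbol of gasdermin E (log2 fold change -0.97, adjusted p = 0.00191), and Ninj1, which ruptures the membrane at the end of lytic death (log2 fold change -0.94, adjusted p = 1.82e-05), were also lower in limma. Among the genes too sparse to test, both directions occurred. Nlrp3 had 0, 2 and 1 reads in T1 replicates 1 to 3 and 7, 8 and 8 in T2 replicates 1 to 3. The ratio of T2 to T1 reads of this inflammasome sensor was 7.59, with a 95% counting interval of 2.29 to 39.5. Il1b, which encodes the other cytokine that caspase-1 matures, had 4, 8 and 2 reads in T1 replicates 1 to 3 and 0, 0 and 0 in T2 replicates 1 to 3, at least 1.55-fold higher in T1 cells against the floor of 3 reads per T2 library. Zbp1, a nucleic acid sensor of necroptosis, had 3, 5 and 9 reads in T1 replicates 1 to 3 and 2, 0 and 0 in T2 replicates 1 to 3, a ratio of T1 to T2 reads of 8.59 with a 95% counting interval of 2.04 to 76.6.

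**Figure D5:**
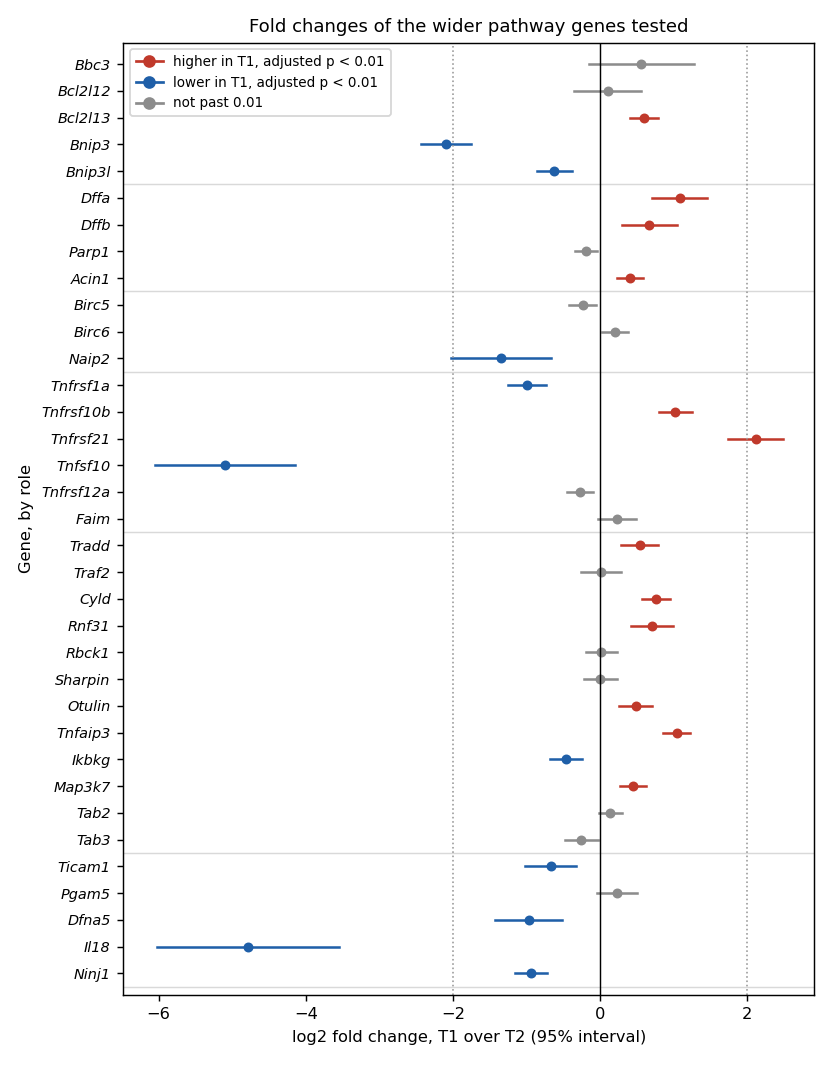
Fold change of the 35 wider pathway genes tested, as log2 of T1 over T2 with its 95% interval from limma, by role from the top: other Bcl2 family, downstream targets, inhibitors, receptors and ligands, TNF receptor complex I, and necroptosis and pyroptosis. Colored points passed an adjusted p under 0.01, and dotted lines mark a log2 fold change of 2. Tnfsf10 (-5.10) and Il18 (-4.79) were lowest and Tnfrsf21 (2.12) highest.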

How the data were processed

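RNA from 3 T1 and 3 T2 replicates was sequenced from poly(A) libraries (TruSeq RNA v2, HiSeqX). The authors aligned reads to mm10 with TopHat2, counted them with HTSeq and divided the counts by DESeq2 size factors, so the deposited signal is a normalized count per gene. Tool versions, annotation and strand setting are not given in the sources used here. All columns of values were used (0 left out). Every value was whole reads (100% within 0.01) after scaling. Of 24129 rows, 27 named by dates are not named here.

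limma 3.58.1 (R 4.3.3, variance trend) compared log2(normalized count + 1) for genes with a mean of at least 10. edgeR 4.0.16 and DESeq2 1.42.0 ran on the recovered reads. The limma, edgeR and DESeq2 fits were tried on simulated reads with the same dispersion for every gene. Neither the permutation test nor the counting intervals were tried on simulated data. Counting intervals (95%) and the floor of 3 reads cover counting error only. The members and lists were chosen with earlier results of these data known. Every sample is given for members with an adjusted p under 0.01 and an absolute log2 fold change of at least 1, or at most 3 reads per library in a population. Wider pathway genes named are Bbc3, Pmaip1, Birc5 and the 3 largest called changes per list and direction. Some genes of that list are not reported here. Fasl, Tnf, Il1b, Zbp1, Nlrp3 and the non-members of the caspase region were added after their values were seen. Exon lengths and positions came from GENCODE on mm10. The replicate numbers are shared by the populations, but the sources used here name no pairing. Samples were therefore not taken as pairs, and the replicate number as a block was run as an alternative. The correlation of deviations was 0.05749, 0.1722 and 0.104 between same-numbered samples and -0.1524 to 0.07192 between the others. A shared batch behind the numbers was not tested. Figures were drawn with matplotlib 3.10.9.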

Additional observations from a re-analysis of the deposited data

How the results depend on the processing

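Over 15 alternatives, 447 of 478 values kept their direction and side of the threshold, and 23 of the 32 members tested kept both under every alternative in which they were tested. The members called higher in T1 cells were 8 with edgeR and with DESeq2, 5 without the variance trend and 5 to 6 when 1 library was left out, and those called lower were 14 with both tools and 12 to 14 when 1 library was left out. The calls that ended were of Aifm1, Bax, Birc3, Endog, Gsdmd and Ripk1. Members past both filters were 3 with a mean of at least 50, where Bmf and Fas were no longer tested, and 10 with an adjusted p under 0.05 and a log2 fold change above 1. The sign reversed for Mlkl without T1 replicate 1 (0.004323, lowest -0.162), Apaf1 without T2 replicate 1 (-0.04698, highest 0.07464) and Diablo without T2 replicate 3 (0.05527, lowest -0.06695, log2 fold changes with 1 library left out), none of which was called. With the replicate number as a block, 7 members were higher and 14 lower, and the call lost was that of Aifm1 (limma adjusted p = 0.0156). Over all genes the block gave 5780 calls against 5701. Each T1 replicate, and T2 replicates 2 and 3, correlated best with the same number in the other population. T2 replicate 1 correlated best with T1 replicate 3 (0.07192, against 0.05749 with its own number). Depth limits Hrk, Ripk3, Pycard, Bik and Casp4, which lie at or near the floor in at least one population. It also limits the size of the change of Fas, with 1 or 2 reads per T2 library. The same holds for Casp1, with 0 to 10 reads per T1 library.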
